A study of Rattus with 9 samples.

Results

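The expression of 10 genes of the hypoxia-inducible factor (HIF) pathway was examined in single cells of the rat bile duct after liver transplantation (LT). They were taken by symbol as members of the pathway: the subunits Hif1a, Epas1 and Arnt, the sensors and the degradation factor Egln1, Egln3 and Vhl, and the direct targets Ankrd37, Adm, Vegfa and Bnip3. They are 10 of the 23836 gene symbols counted. All 10 had unique molecular identifier (UMI) counts in every one of the 11 cell classes compared below.

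A HIF is a pair of an oxygen-regulated alpha subunit, encoded by Hif1a or Epas1, and the constant partner Arnt. In the presence of oxygen, prolyl hydroxylases such as Egln1 and Egln3 modify the alpha subunit, which lets the ubiquitin ligase built around Vhl mark it for degradation. When oxygen is scarce, the alpha subunit is spared and the pair drives target genes such as Vegfa, Adm, Bnip3, Ankrd37 and Egln3 itself. This control acts largely on the protein, and scRNA-seq measures only the transcripts. The bile duct is supplied by a vascular plexus fed by the hepatic artery, so its oxygen supply is a known concern after LT.

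Of the sham group, 3 samples of a single library each were available. The ctrl group was rats with LT and ischemic injury. The treat group had the same LT with the splenic and gastroduodenal arteries tied, a step meant to raise hepatic arterial flow. Bile ducts of ctrl and treat rats were sampled on days 1, 3 and 7 post-LT, with 1 sample per group and day. Each of these samples held 3 libraries, except treat at day 3 with 2 libraries used here, so 9 samples and 20 libraries were analysed. The study's methods name Sprague-Dawley rats and a period of warm ischemia before LT. The labels give no strain or age for single samples, do not describe the sham procedure and do not say which libraries came from separate rats. The libraries of a sample were therefore summed, and the p-values below measure the spread between these samples. In the group comparisons this spread comes from the sham samples and from how the treat difference varied between days. Spread between rats within the ctrl or treat group of a day was not measured.

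After filtering, 139707 cells were kept, 2285 to 31706 per sample, with 9248284 to 191155077 UMIs. Libraries shared at most 0.553% of the barcodes of the smaller one. The cells formed 40 clusters, and 27 were named by marker genes as "like" a cell type. The suffix is left out below. In the 3 clusters of biliary epithelial cells (BEC), 10 to 12 of 12 BEC markers were detected. In the fibroblast clusters 8 of 9 were detected, and in the vascular endothelial cluster 10 of 10. A cluster of 1318 cells met the naming rule for glial cells with 3 of 6 markers, but the mesothelial gene Msln was also among its leading genes. With finer clusters (Leiden resolution 2) a glial cluster of 309 cells and a mesothelial one of 1050 cells were named, so this class is called the Ucn2, Gap43 and Msln cluster. The unnamed clusters held 17.2% of the cells. Most BEC of the sham group (72.6%) lay in a cluster that held 1.61% of the ctrl BEC and 2.76% of the treat BEC. Most sham fibroblasts (74.1%) and macrophages (58.5%) likewise lay in clusters that held under 5% of these classes post-LT. The days differed as well: 319 of 324 ctrl fibroblasts and 3600 of 3768 treat fibroblasts of day 1 lay in a cluster led by Ptx3, Mgp and Mt2A, and 1005 of 1035 and 837 of 897 of day 7 in one led by Cthrc1, Mfap5 and Postn. Values within a class therefore compare partly different cell states between the sham and post-LT groups and between days.

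Some libraries stood apart in these genes. Libraries 2 and 3 of ctrl day 1 and library 3 of ctrl day 3 had 217 to 613 CPM of Bnip3 over all cells (CPM, the usual share of UMI counts scaled to the same total in every sum of cells). Bnip3, a mitophagy and cell death protein of the mitochondrial membrane, lay at 19.6 to 82.1 CPM in the other 17 libraries. Egln3 was at 62.5 to 174 CPM in these 3 libraries and at 6.46 to 22.2 CPM in the others, so neither gene overlapped. The same 3 libraries were highest for Bnip3 within BEC (263 to 978 CPM, the others 10.5 to 174), fibroblasts (272 to 641 CPM, the others 34.0 to 88.1), macrophages (267 to 366 CPM, the others 5.89 to 68.8) and neutrophils (216 to 742 CPM, the others 0 to 135). The glucose transporter gene Slc2a1 (128 to 330 CPM, the others 16.6 to 82.6) and the glycolytic gene Pgk1 (1402 to 5671 CPM, the others 192 to 1178) followed the same pattern. Their median mitochondrial share was 2.04% to 4.62% and that of the other libraries 1.95% to 5.12%. Their median gene count was 807.5 to 1256, against 740 to 1930 in the others, of which the second lowest was 983. They held 313 to 3490 cells, against 419 to 12572. Their median hemoglobin share reached 0.195%, against at most 0.177%. The 3 libraries were picked for their gene levels, so no test was made, and the calls of the 10 genes are given with and without them. Library 3 of ctrl day 3 had only 313 cells, because a limit on hemoglobin UMIs removed 3966 of its barcodes and 2479 of library 2 of that day. Library 3 of treat day 1 stood apart in Epas1, with 229.8 CPM over all cells against at most 107.4 CPM in any other library.

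**Figure D1:**
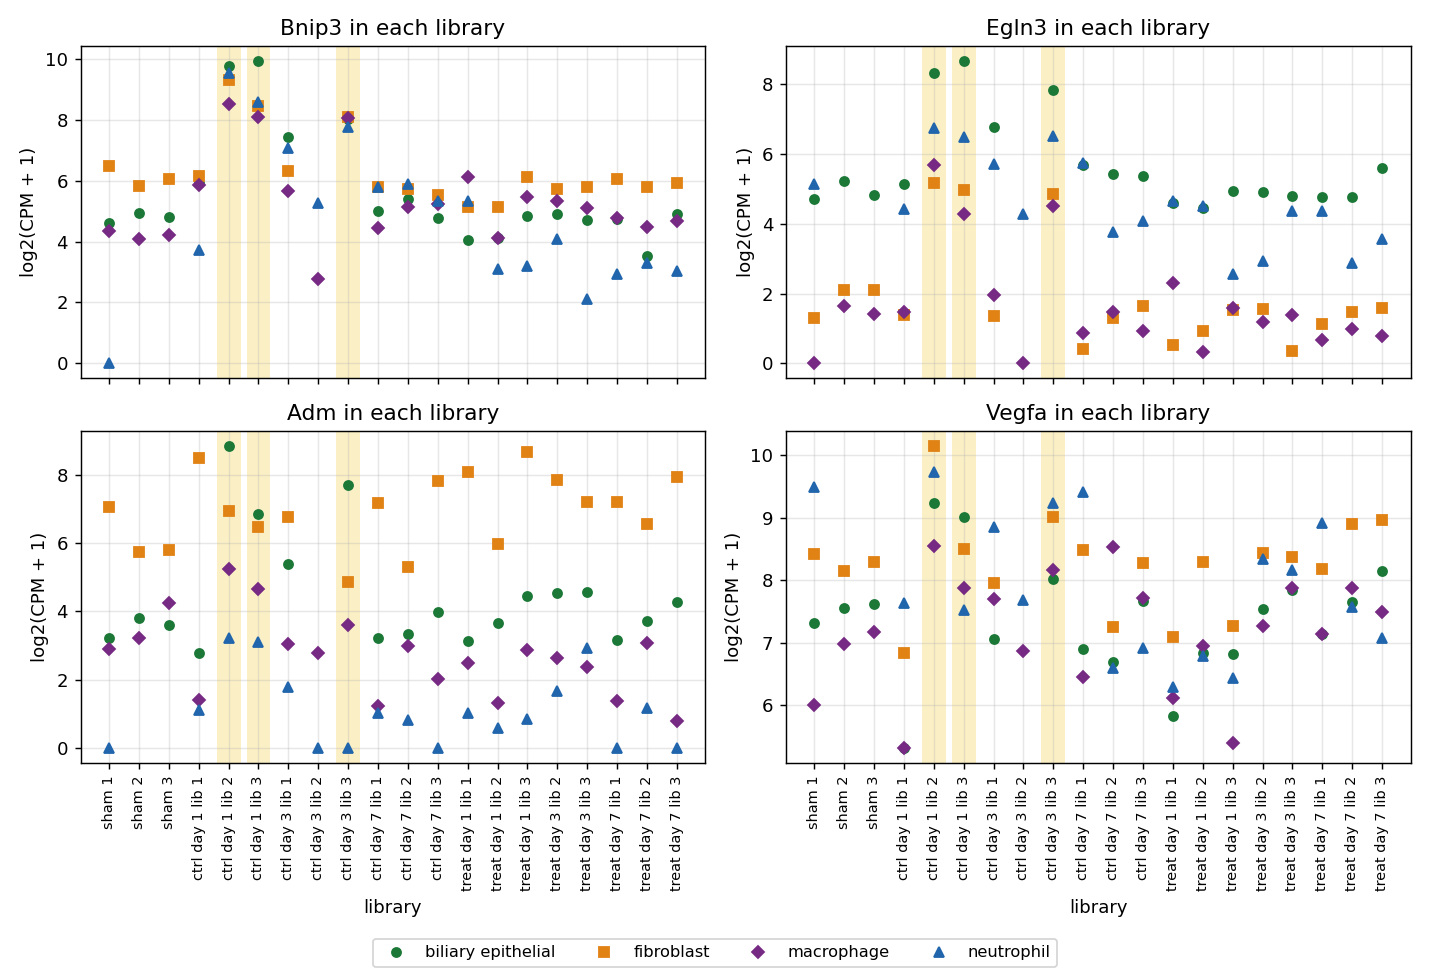
Level of Bnip3, Egln3, Adm and Vegfa in each of the 20 libraries on a log2(CPM + 1) scale, within BEC, fibroblasts, macrophages and neutrophils; classes with under 20 cells in a library are not drawn. The shaded libraries 2 and 3 of ctrl day 1 and library 3 of ctrl day 3 hold the highest Bnip3 and Egln3 values of each class, while Adm and Vegfa overlap with other libraries in fibroblasts.

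Across the cell classes, each gene had its own pattern of levels. Levels are medians over the samples with at least 20 cells of a class, in CPM of that class, and are compared within a gene only. Classes next to each other in the order of mean log2(CPM + 1) were compared by a two-sided exact sign-flip permutation test paired by sample. Of 100 neighbouring pairs, 0 passed after Benjamini-Hochberg adjustment and 18 had an unadjusted p under 0.05. The smallest p that 9 samples allow is 0.00391, and with 100 pairs its adjusted value was 0.112. The order below is therefore a description in which no neighbouring classes were separated by the test. It was made from the same values that the test uses.

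Among the subunits, Hif1a was measured broadly. It was highest in lymphatic endothelial cells (median 220 CPM) and vascular endothelial cells (194 CPM), followed by NK and T cells (141 CPM), and lowest in tuft cells (44.9 CPM). The step from vascular endothelial to NK and T cells had the same sign in 9 of 9 samples, with a mean difference of 0.51 ± 0.32 on the log2 scale (SD; exact permutation test, p = 0.00391, adjusted p = 0.112). Epas1, which encodes the alpha subunit best known from endothelium, was concentrated in vascular endothelial cells. Its median there was 380 CPM (range 137.5 to 503.5), against 64.2 CPM in fibroblasts, 31.4 CPM in lymphatic endothelial cells and 20.5 CPM in BEC. Vascular endothelial cells exceeded fibroblasts in 9 of 9 samples by 2.77 ± 1.77 on the log2 scale (SD; exact permutation test, p = 0.00391, adjusted p = 0.112). In macrophages and dendritic cells the Epas1 median was 2.73 and 1.54 CPM. An unnamed cluster led by Des, Cox4i2, Acta2 and Rgs5, genes of contractile mural cells, had an Epas1 median of 426 CPM, and another led by Ccl19, Apold1 and Cox4i2 one of 424 CPM. Vascular endothelial cells gave 38.2% to 65.3% of the Epas1 UMIs of the 3 sham samples, and were 14.8%, 5.82% and 5.38% of the cells of sham samples 1, 2 and 3. Arnt was low in every class, with medians of 2.33 to 6.56 CPM.

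The sensors differed from each other. Egln1, the main oxygen-dependent hydroxylase of the alpha subunits, was low throughout and highest in neutrophils (median 17.2 CPM, the other classes 1.93 to 7.57 CPM). Egln3, a hydroxylase that is also a HIF target, was highest in tuft cells (71.9 CPM, range 47.6 to 117.9), followed in the order of mean log2(CPM + 1) by BEC (median 33.5 CPM) and lymphatic endothelial cells (median 38.2 CPM), whose order by median was the opposite. It was 1.66 CPM in macrophages and 1.55 CPM in fibroblasts. Vhl, the substrate-binding subunit of the ligase, spanned only 10.6 to 24.5 CPM across the classes.

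Of the targets, Vegfa, the main endothelial growth factor, was highest in tuft cells with 676 CPM (range 368.9 to 752.1). Neutrophils (316 CPM) and fibroblasts (285 CPM) followed, and vascular endothelial cells had 16.0 CPM. Tuft cells exceeded neutrophils in 7 of 7 shared samples (exact permutation test, p = 0.0156, adjusted p = 0.142). Adm, which encodes the vasodilator peptide adrenomedullin, was highest in lymphatic endothelial cells (198 CPM) and fibroblasts (131 CPM). Fibroblasts exceeded vascular endothelial cells (41.7 CPM) in 9 of 9 samples by 1.47 ± 0.86 on the log2 scale (SD; exact permutation test, p = 0.00391, adjusted p = 0.112). Ankrd37, an ankyrin repeat protein induced by hypoxia, was highest in BEC (80.4 CPM), which held 46.8% of its UMIs in the sham group. Bnip3 was highest in the Ucn2, Gap43 and Msln cluster (80.7 CPM) and in fibroblasts (61.0 CPM). Its BEC levels ran from 19.1 to 669.6 CPM across samples, which is the widest log2 spread of Bnip3 after that of neutrophils.

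**Figure D2:**
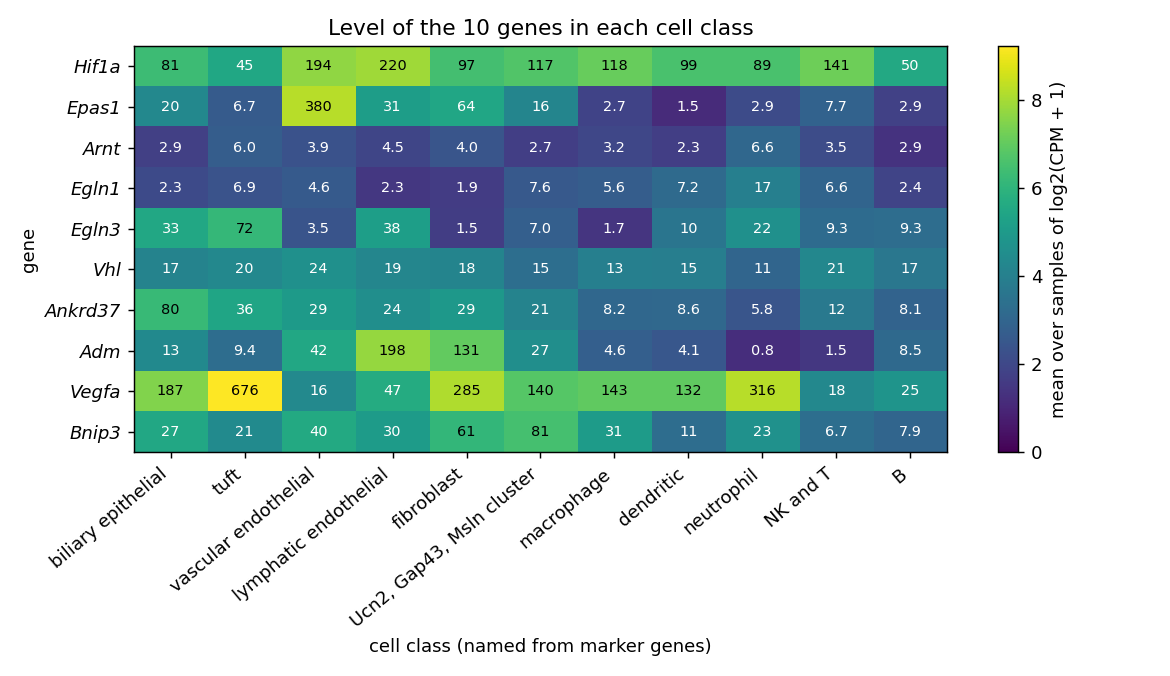
Levels of the 10 genes in 11 cell classes; the color gives the mean over samples of log2(CPM + 1) and the number in each cell is the median CPM over 7 to 9 samples. Epas1 peaks in vascular endothelial cells (380 CPM), Vegfa and Egln3 in tuft cells (676 and 72 CPM) and Ankrd37 in BEC (80 CPM), while Arnt and Vhl vary little.

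The ctrl group was compared with the sham group to ask which of these genes differ after LT with ischemic injury. Counts were summed per sample, over all cells and within the 6 classes with at least 20 cells in every sample, and edgeR's quasi-likelihood test was used with a term for day. Fold changes are on the log2 scale with their SE, and adjusted p-values cover all genes of a fit but not the several fits. Over all cells, 1 of 10 genes was called, at an adjusted p under 0.05, against 11.6% of all 16476 genes tested. Within classes, 10 of 58 gene and class pairs were called, 7 higher and 3 lower, and 2 pairs (Arnt and Epas1 in tuft cells) had too few counts to be tested. The share of all genes called was 12.7% in BEC, 0.662% in tuft cells, 4.41% in vascular endothelial cells, 20.1% in fibroblasts, 15% in macrophages and 7.19% in NK and T cells. The 10 genes were called 2 times in BEC, 0 times in tuft cells, 1 time in vascular endothelial cells, 4 times in fibroblasts, 2 times in macrophages and 1 time in NK and T cells. Over all cells, a change of cell numbers and a change of RNA per cell cannot be told apart. Overlap between groups refers to these sums, and single libraries of a sample can lie elsewhere. Each of the 17 libraries of the ctrl and treat samples was therefore also left out in turn, a setting chosen after seeing the data. Of the 15 calls of the 10 genes in the comparison of ctrl with sham and of day 7 with day 1, 8 passed in all 17 of these fits and 0 changed direction. Scaling by library size in place of TMM moved the median of all genes over all cells from -0.06 to -0.40, and the split of called genes from 1127 higher and 784 lower to 476 higher and 1932 lower. The calls of Hif1a over all cells and of Hif1a, Epas1 and Bnip3 within the classes named as higher below kept their direction under both.

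Hif1a was higher in the ctrl group over all cells. It was at 77.2, 77.9 and 89.2 CPM in the sham samples and at 134.5, 177.8 and 147.2 CPM in the ctrl samples at days 1, 3 and 7, so that the groups did not overlap. The treat samples lay at 134.3, 159.9 and 119.8 CPM, also above every sham sample. Its log2 fold change was 1.25 ± 0.14 (adjusted p = 0.0142), and it was 1.17 (adjusted p = 0.0107) without the 3 libraries that stood apart. Leaving out sham sample 2 or 3 or the ctrl sample of day 3 or 7 ended the call, with fold changes of 1.12 to 1.32 and adjusted p of 0.0619 to 0.102.

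The other 9 genes did not pass over all cells by edgeR. Bnip3 came nearest, at 31.7, 40.9 and 45.7 CPM in the sham samples and at 309.9, 75.3 and 35.8 CPM in the ctrl samples of days 1, 3 and 7. Day 7 lay inside the sham range, and the fold change was 1.63 ± 0.43 (adjusted p = 0.0572). It was 0.62 (adjusted p = 0.152) without the 3 libraries. DESeq2 called Bnip3 (1.66, adjusted p = 0.00219) and Egln1 (0.90, adjusted p = 0.0273) beside Hif1a. Egln3 was at 13 to 22.2 CPM in the sham samples and at 88.5, 22.9 and 13.02 CPM in the ctrl samples, with day 7 next to the lowest sham sample. The Egln3 fold change was 1.31 ± 0.56 (adjusted p = 0.158), and 0.26 (adjusted p = 0.346) without the 3 libraries. Epas1 over all cells was at 107.4, 31.2 and 28.8 CPM in the sham samples and at 27.5 to 37.7 CPM in the ctrl samples, with the highest value in sham sample 1. For Vhl, Arnt and Vegfa the fold changes were -0.05, -0.03 and 0.06, with SE of 0.17 to 0.28.

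In fibroblasts both alpha subunits were higher. Hif1a was at 26.4, 51.6 and 51.5 CPM in the sham samples and at 177.7, 177.5 and 197.0 CPM in the ctrl samples. Its fold change was 2.23 ± 0.24 (adjusted p = 0.00144). Epas1 was at 14.7, 11.5 and 9.19 CPM in the sham samples and at 66.4, 52.5 and 92.4 CPM in the ctrl samples, with a fold change of 2.91 ± 0.31 (adjusted p = 0.00154). Neither gene overlapped between the groups, and each of the 8 ctrl libraries with at least 20 fibroblasts lay above the highest sham sample in both genes. These are the only calls of these 10 genes that passed in all 20 alternative settings, and without the 3 libraries the fold changes were 2.06 for Hif1a and 2.98 for Epas1. The median fibroblast had 5947 to 6778 UMIs in the sham and 9718 to 24500 UMIs in the ctrl samples, and the part of this in the result was not tested. The fibroblast clusters also differed between the groups: 74.1% of sham fibroblasts lay in a cluster led by Ogn and Tac3, and 75.9% of ctrl fibroblasts, nearly all of them of days 3 and 7, in the one led by Cthrc1, Mfap5 and Postn. Within the latter alone, Hif1a was at 58.4 and 50.4 CPM in sham samples 2 and 3 and at 180.1 and 197.6 CPM in the ctrl samples of days 3 and 7. Epas1 in the same cluster was at 14.9 and 10.6 CPM in the sham and at 54.3 and 93.2 CPM in the ctrl samples.

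In vascular endothelial cells, the class with the highest Epas1, that gene was lower. Its level was 503.5, 379.9 and 391.4 CPM in the sham samples and 137.5, 220.0 and 285.0 CPM in the ctrl samples, which did not overlap. The fold change of Epas1 was -0.96 ± 0.22 (adjusted p = 0.0418) and -0.88 (adjusted p = 0.0434) without the 3 libraries. The Epas1 call was held in 11 of 20 alternatives. It ended without TMM (-1.01, adjusted p = 0.0556), without the day term (-0.94, adjusted p = 0.0984) and with doublets kept (-0.89, adjusted p = 0.0687). Without the ctrl sample of day 1 it was -0.62 (adjusted p = 0.231), and it also ended without sham sample 2 or 3, ctrl day 3, ctrl day 7 or treat day 7 (adjusted p = 0.0652 to 0.125). Leaving out library 1 of ctrl day 1, ctrl day 3 or treat day 1 or library 2 of ctrl day 7 ended it as well (-0.85 to -1.04, adjusted p = 0.0550 to 0.128). Hif1a in the same cells was at 155.4 to 282.7 CPM in the sham and 165.1 to 211.8 CPM in the ctrl samples, with a fold change of -0.08 ± 0.27 (adjusted p = 0.894).

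BEC and macrophages also had higher Hif1a. In BEC it was at 75.1, 63.8 and 63.5 CPM in the sham samples and at 105.0, 103.6 and 84.0 CPM in the ctrl samples, and the groups did not overlap. The fold change was 0.80 ± 0.12 (adjusted p = 0.0133), and 0.51 (adjusted p = 0.0419) without the 3 libraries. Within the BEC cluster led by Wfdc21 and Lypd8, Hif1a was at 75.8, 69.5 and 91.2 CPM in the sham and at 105.7, 101.9 and 98.3 CPM in the ctrl samples. In the cluster that held most sham BEC, Hif1a was at 72.3, 62.6 and 60.9 CPM in the sham samples. The ctrl samples of days 1 and 7 were at 84.2 and 63.8 CPM there (44 and 24 cells), so the groups overlapped. The remaining BEC cluster, led by Clca5 and Sectm1b, held 7.11% of the sham and 50.35% of the ctrl BEC. Its Hif1a levels are not given here. In macrophages Hif1a was at 77.8, 79.1 and 82.1 CPM in the sham samples and at 203.7, 214.8 and 118.5 CPM in the ctrl samples, with a fold change of 1.40 ± 0.21 (adjusted p = 0.00822), and 1.41 (adjusted p = 0.00785) without the 3 libraries. In the macrophage cluster that held most sham cells, led by Mrc1 and Cd163, Hif1a was at 78.1 and 80.6 CPM in sham samples 2 and 3 and at 51.2, 69.3 and 56.8 CPM in the ctrl samples, so the order was the opposite there. In the one led by C1qa and C1qc it was at 57.1, 74.8 and 90.7 CPM in the sham and at 81.7, 143.7 and 97.7 CPM in the ctrl samples, and in another at 52.4, 74.6 and 42.7 CPM and at 44.5, 118.8 and 78.5 CPM, so both overlapped. The other 2 clusters had sham cells enough for a value in sham sample 1 only, with 36 and 20 cells (39 and 3 UMIs of Hif1a), and allow no comparison with the sham group. The BEC call ended without sham sample 2 (0.78, adjusted p = 0.0821), sham sample 3 (0.79, adjusted p = 0.0723) or ctrl day 1 (0.68, adjusted p = 0.0753), and the macrophage call without sham sample 3 (1.42, adjusted p = 0.0507) or ctrl day 7 (1.30, adjusted p = 0.0686). With finer clusters (Leiden resolution 2) the macrophage value was 0.93 (adjusted p = 0.0744).

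**Figure D3:**
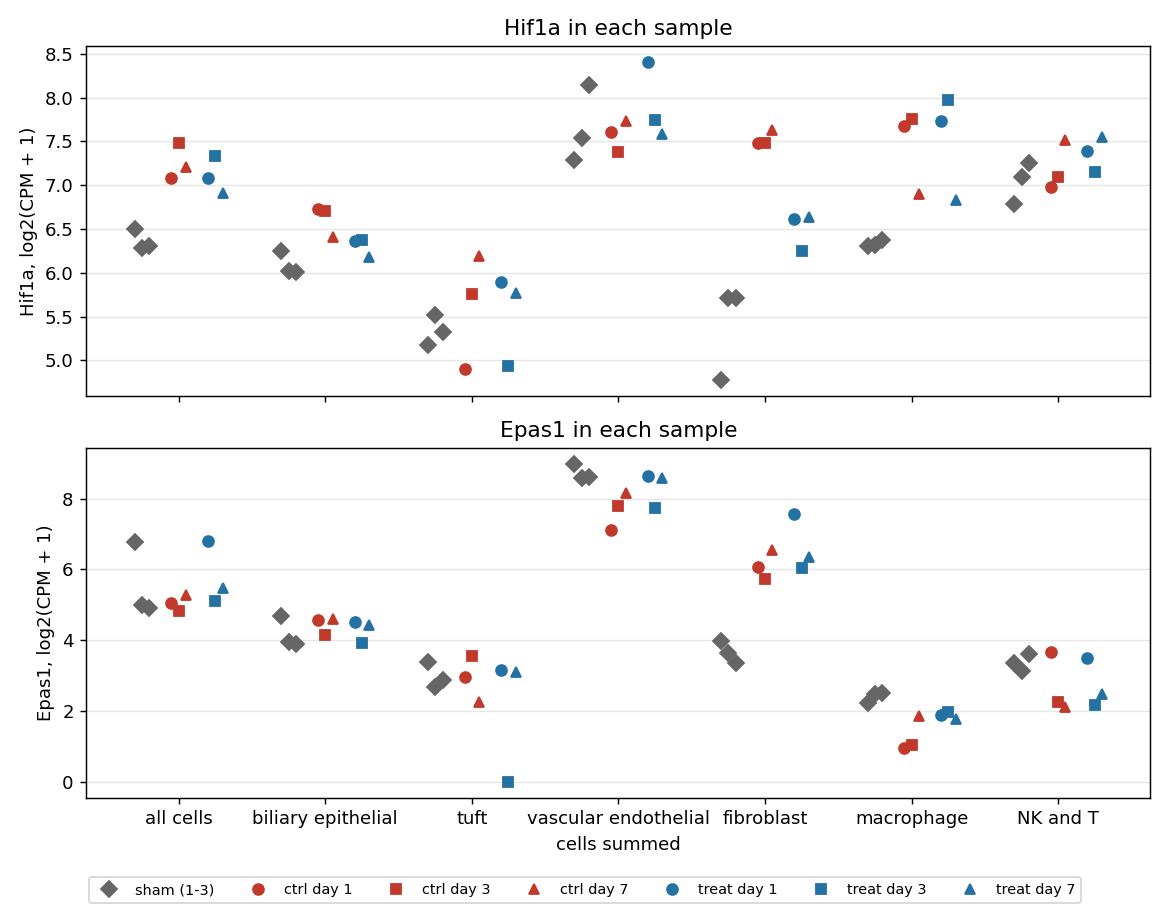
Hif1a (top) and Epas1 (bottom) in each of the 9 samples on a log2(CPM + 1) scale, over all cells and within 6 classes; gray diamonds are sham, red points ctrl and blue points treat. In fibroblasts all ctrl and treat points lie above all sham points for both genes, and in vascular endothelial cells the 3 ctrl points of Epas1 lie below the sham points.

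Among the sensors, Egln3 was called in BEC. It was at 25.04, 36.87 and 27.64 CPM in the sham samples and at 269.0, 109.7 and 45.9 CPM in the ctrl samples at days 1, 3 and 7, and the groups did not overlap. The fold change was 2.26 ± 0.55 (adjusted p = 0.0409). Without the 3 libraries the Egln3 fold change was 1.10 (adjusted p = 0.0451). The call ended without library 1 of ctrl day 1 or of ctrl day 3 (2.47 and 2.30, adjusted p = 0.0545 and 0.0617), without ctrl day 1 (1.32, adjusted p = 0.117), and also without sham sample 1, 2 or 3, ctrl day 3 or treat day 3 (2.11 to 2.47, adjusted p = 0.0601 to 0.139) and with no filter on low counts (2.27, adjusted p = 0.105). In the cluster that held most sham BEC, Egln3 was at 28.4, 28.5 and 25.1 CPM in the sham samples. The ctrl samples of days 1 and 7 were at 43.2 and 5.80 CPM there (20 and 1 UMIs), so the groups overlapped. The part of the BEC clusters in the Egln3 call was not tested. Egln1 was at 2.27 to 5.01 CPM in the sham and 2.19 to 12.5 CPM in the ctrl BEC, with a fold change of 1.21 ± 0.53 (adjusted p = 0.166). Vhl and Arnt were called in none of the classes with all samples and TMM scaling. For Vhl in macrophages the groups did not overlap (14.8 to 29.7 CPM in the sham and 9.40 to 12.8 CPM in the ctrl samples), with a fold change of -0.93 ± 0.30 (adjusted p = 0.0603), and DESeq2 called it at -0.92 (adjusted p = 0.0446).

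Among the targets, Bnip3 was higher in macrophages, at 19.5, 15.9 and 17.4 CPM in the sham samples and at 84.6, 54.2 and 30.7 CPM in the ctrl samples. These groups did not overlap, the fold change was 1.87 ± 0.20 (adjusted p = 0.00326), and without the 3 libraries it was 1.64 (adjusted p = 0.00406). With each library as a sample it was 2.45 and missed the threshold (adjusted p = 0.0508). In the macrophage cluster led by Mrc1 and Cd163, Bnip3 was at 15.6 and 17.2 CPM in sham samples 2 and 3 and at 64.9, 34.1 and 17.1 CPM in the ctrl samples, so that day 7 lay within the sham values there. In BEC the sham samples held 23.61, 29.95 and 27.16 CPM of Bnip3 and the ctrl samples 669.6, 171.1 and 29.6 CPM. Day 7 lay inside the sham range, and the fold change of 3.00 ± 0.81 missed the threshold (adjusted p = 0.0525). Without the 3 libraries, Bnip3 in BEC was called with a smaller fold change of 1.56 (adjusted p = 0.0339).

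Adm was higher in fibroblasts, at 130.7, 52.2 and 54.0 CPM in the sham samples and at 292.4, 102.0 and 119.5 CPM in the ctrl samples. The groups overlapped through sham sample 1, which had 88 fibroblasts, and the fold change was 1.32 ± 0.38 (adjusted p = 0.0470). It was 1.47 (adjusted p = 0.0457) without the 3 libraries. The ctrl value of day 1 rested on library 1, which held 2227 of the 2425 Adm UMIs at 359.3 CPM, against 122.1 and 87.4 CPM in libraries 2 and 3. Without library 1 the sample was at 94.5 CPM, below sham sample 1, and the fold change was 0.68 (adjusted p = 0.290). Without library 1 of ctrl day 3 it was 0.93 (adjusted p = 0.473), and leaving out library 1 or 3 of ctrl day 7 or library 3 of treat day 1 or 3 also ended the call (1.18 to 1.34, adjusted p = 0.0534 to 0.0740). The Adm call was held in 10 of 20 alternatives, and ended without sham sample 2 or 3, ctrl day 1, ctrl day 7 or treat day 7 (1.01 to 1.32, adjusted p = 0.0702 to 0.187). It also ended without TMM, without the day term, with doublets kept and with free RNA subtracted (1.06 to 1.47, adjusted p = 0.0506 to 0.234), and with each library as a sample (0.81, adjusted p = 0.514). In BEC, Adm was at 8.23 to 12.8 CPM in the sham samples and at 197.0, 46.5 and 11.2 CPM in the ctrl samples (fold change 2.55 ± 0.76, adjusted p = 0.0684).

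Ankrd37 was lower in fibroblasts, at 29.4, 43.7 and 48.1 CPM in the sham samples and at 24.7, 19.1 and 20.7 CPM in the ctrl samples. The sums did not overlap, but the libraries did: ctrl day 1 was at 15.3 CPM in library 1 and at 32.9 and 57.5 CPM in libraries 2 and 3, and without library 1 at 52.5 CPM, above every sham sample. Library 3 of ctrl day 3 was at 47.2 CPM of Ankrd37. Its fold change was -0.76 ± 0.22 (adjusted p = 0.0394), and -1.003 (adjusted p = 0.0120) without the 3 libraries. Without library 1 of ctrl day 1, of ctrl day 3 or of ctrl day 7 it was -0.48, -0.33 and -0.62 (adjusted p = 0.340, 0.424 and 0.101), and without library 3 of treat day 1 it was -0.75 (adjusted p = 0.0594). The call ended without sham sample 2 or 3, ctrl day 1, 3 or 7, or treat day 7 (-0.58 to -0.93, adjusted p = 0.0630 to 0.194). It also ended without the day term (-0.72, adjusted p = 0.236) and with each library as a sample (-0.36, adjusted p = 0.592). In tuft cells all 3 ctrl samples of Ankrd37 (60.4 to 75.6 CPM) lay above all 3 sham samples (19.8 to 49.8 CPM), with a fold change of 1.10 ± 0.33 that missed the threshold (adjusted p = 0.158).

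Vegfa was lower in NK and T cells. It was at 39.4, 66.5 and 46.2 CPM in the sham samples and at 18.3, 6.57 and 9.33 CPM in the ctrl samples, without overlap, and the treat samples lay at 18.5, 11.2 and 8.73 CPM. Within ctrl day 1, library 1 was at 7.67 CPM and libraries 2 and 3 at 65.3 and 31.5 CPM (7 and 11 UMIs), and without library 1 the sample was at 39.5 CPM, inside the sham range. The fold change was -2.15 ± 0.31 (adjusted p = 0.00237), and -2.47 (adjusted p = 6.8e-04) without the 3 libraries. It was -1.95 (adjusted p = 0.00717) without library 1 of ctrl day 1. Without the day term the call ended (-2.22, adjusted p = 0.0676). A cluster with 48.2% of the sham NK and T cells held 22.7% of the ctrl ones, and another went from 1.26% to 16.3%. The part of these shifts in the Vegfa value was not tested. Vegfa in BEC was at 157.4, 187.3 and 195.6 CPM in the sham and 403.5, 137.2 and 152.8 CPM in the ctrl samples, with a fold change of 0.56 ± 0.56 (adjusted p = 0.536). Without the 3 libraries it turned to -0.76 and was called (adjusted p = 0.0339). In tuft cells, where Vegfa was highest, the fold change was -0.44 ± 0.18 (adjusted p = 0.341).

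The treat group was compared with the ctrl group of the same days to ask whether raised arterial flow changes these genes. This comparison shares its ctrl samples with the one above. By edgeR, 0 of 10 genes over all cells and 0 of 58 pairs within classes were called, and 2 and 12 had an unadjusted p under 0.05. DESeq2's Wald test called 1 (Bnip3) and 2 (Egln3 in BEC and Hif1a in fibroblasts), and edgeR with each library as a sample called 0 and 4. By edgeR with libraries summed, the share of all genes called was 0% over all cells and in BEC, tuft cells, macrophages and NK and T cells, 0.00985% in vascular endothelial cells and 0.00830% in fibroblasts. The shares by DESeq2 and with each library as a sample are not given here. Of the 12 pairs within classes with an unadjusted p under 0.05, 11 were lower in the treat group. The share of all genes at this unadjusted threshold, and their direction, are not given here. The pairs also share the same samples, so these counts are not read as a result about the 10 genes.

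Bnip3 and Egln3 in BEC had the lowest fold changes. Bnip3 in BEC was at 19.1, 27.3 and 22.1 CPM in the treat samples at days 1, 3 and 7, each below the ctrl sample of the same day (669.6, 171.1 and 29.6 CPM) and 2 of 3 below the lowest sham sample (23.6 CPM). The fold change was -2.80 ± 0.88 (adjusted p = 0.278), and -1.64 (adjusted p = 0.243) without the 3 libraries. Egln3 in BEC was at 24.5, 27.9 and 33.4 CPM in the treat samples, all within or just below the sham range, with a fold change of -2.07 ± 0.57 (adjusted p = 0.266) and of -1.03 (adjusted p = 0.244) without the 3 libraries. The clusters of BEC differed between the groups, with 50.4% of the ctrl and 81.3% of the treat BEC in the one led by Clca5 and Sectm1b and 48.0% and 16.0% in the one led by Wfdc21 and Lypd8. In the former Bnip3 was at 324.3, 31.9 and 19.8 CPM in the ctrl and at 29.7, 15.7 and 14.9 CPM in the treat samples, and Egln3 at 91.8, 36.9 and 36.6 CPM and at 18.7, 19.1 and 27.8 CPM. In the latter Bnip3 was at 700.8, 266.4 and 97.0 CPM in the ctrl and at 15.8, 152.4 and 125.4 CPM in the treat samples, and Egln3 at 286.0, 160.8 and 114.7 CPM and at 27.8, 125.5 and 117.8 CPM, so that at day 7 the treat sample was the higher one for both genes there. With each library as a sample, both passed, Bnip3 at -2.81 and Egln3 at -2.09. In that setting Hif1a in fibroblasts (-1.49) and Epas1 in vascular endothelial cells (0.65) passed too. That setting counts the libraries of a sample as replicates, and the labels do not say whether they came from separate rats.

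Hif1a in fibroblasts was at 96.7, 75.3 and 98.8 CPM in the treat samples, between the sham samples (at most 51.6 CPM) and the ctrl samples (at least 177.5 CPM) with no overlap of the sums on either side. The libraries overlapped, at 90.6 to 603.5 CPM in the ctrl and 61.6 to 159.5 CPM in the treat group, and without its library 2 ctrl day 7 was at 105.8 CPM. Its fold change against ctrl was -1.03 ± 0.23 (adjusted p = 0.189), and -0.88 (adjusted p = 0.195) without the 3 libraries and -0.73 (adjusted p = 0.443) without library 2 of ctrl day 7. Within the cluster led by Ptx3, Mgp and Mt2A, which held most fibroblasts of day 1 in both groups, Hif1a was at 179.5 CPM in the ctrl and 97.7 CPM in the treat sample of that day. Within the cluster led by Cthrc1, Mfap5 and Postn it was at 180.1 and 79.0 CPM at day 3 and at 197.6 and 101.4 CPM at day 7. Epas1 in fibroblasts was at 187.5, 64.2 and 80.1 CPM in the treat samples, with a fold change of 0.54 ± 0.27 (adjusted p = 0.414). The day 1 value rested largely on library 3, which had 410 CPM against 57.8 and 63.7 CPM in libraries 1 and 2, and without it the Epas1 fold change was -0.02 (adjusted p = 0.980). Vegfa, Vhl and Arnt had treat against ctrl fold changes of -0.995 to 0.287 over all cells and in every class tested, and none of them had an unadjusted p under 0.05.

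**Figure D4:**
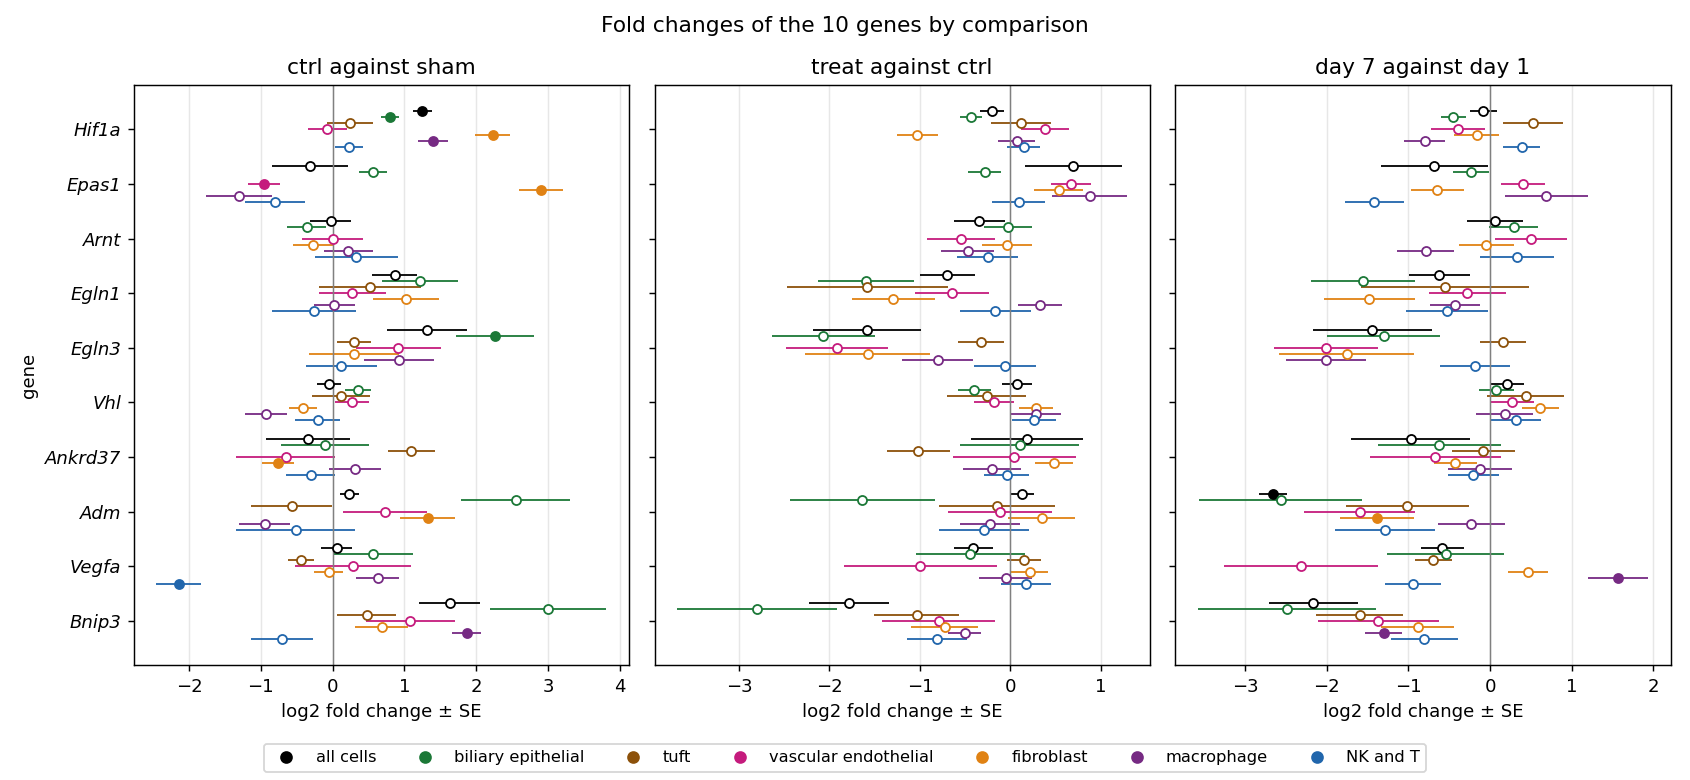
Log2 fold changes (points) and their SE (bars) of the 10 genes over all cells and in 6 classes, for ctrl against sham, treat against ctrl, and day 7 against day 1; filled points passed at an adjusted p under 0.05. Filled points appear in 11 places for ctrl against sham, in 0 for treat against ctrl and in 4 for day 7 against day 1.

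Day 7 was compared with day 1 across the ctrl and treat samples. Over all cells 1 of 10 genes was called, Adm, against 3.17% of all genes. Within classes 3 of 58 pairs were called, and the share of all genes called was 2.72% in BEC, 0.445% in tuft cells, 4.65% in vascular endothelial cells, 34.1% in fibroblasts, 3.97% in macrophages and 1.41% in NK and T cells. Adm fell from 91.0 and 110.4 CPM in the ctrl and treat samples of day 1 to 16.4 and 16.7 CPM at day 7, and lay at 28.9 and 33.6 CPM at day 3. Its sham samples were at 34.1 to 45.7 CPM. The fold change was -2.66 ± 0.17 (adjusted p = 0.0135), and -2.32 (adjusted p = 0.0223) without the 3 libraries. With any sample of day 1 or 7, or sham sample 2 or 3, left out, the adjusted p was 0.0584 to 0.140 and the fold change -2.44 to -2.86. Adm also fell in fibroblasts, from 292.4 and 265.5 CPM to 119.5 and 142.1 CPM (-1.38 ± 0.45, adjusted p = 0.0483), with -1.58 (adjusted p = 0.0431) without the 3 libraries. Without library 1 of ctrl day 1 that sample was at 94.5 CPM, below ctrl day 7, and the Adm value was -0.39 (adjusted p = 0.584). Leaving out any of 7 other libraries also ended the call (-1.14 to -1.43, adjusted p = 0.0512 to 0.263). The fibroblast clusters differed between these days, as given above, and their part in this result was not tested. Within the cluster led by Cthrc1, Mfap5 and Postn, the treat samples had 52.6 CPM of Adm at day 1 (76 cells) and 148.9 CPM at day 7, the opposite order, and ctrl day 1 had under 20 cells there. That call was held in 9 of 19 alternatives, and without ctrl day 1 the Adm value was -0.88 (adjusted p = 0.300). It ended too without sham sample 2 or 3, ctrl day 7, treat day 1 or treat day 7 (-1.30 to -1.81, adjusted p = 0.0547 to 0.226). Without TMM, with free RNA subtracted, with finer clusters and with each library as a sample it ended as well (-0.84 to -1.35, adjusted p = 0.0531 to 0.262). Fibroblasts were 2.52% and 16.7% of the cells at day 1 and 3.26% and 3.46% at day 7 in the ctrl and treat samples.

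In macrophages Bnip3 fell and Vegfa rose between days 1 and 7. The macrophages of these days lay partly in different clusters. A cluster that held 785 ctrl and 1969 treat cells at day 1 held 98 and 31 at day 7, and one with 33 and 103 cells at day 1 held 1663 and 1581 at day 7. Others were shared more. The one led by C1qa and C1qc held 121 and 319 cells at day 1 and 2430 and 2404 at day 7. Another held 614 and 526 cells at day 1 and 947 and 835 at day 7. The part of the clusters in these results was not tested. Bnip3 went from 84.6 and 56.1 CPM at day 1 through 54.2 and 36.5 CPM at day 3 to 30.7 and 24.1 CPM at day 7 in the ctrl and treat samples (-1.30 ± 0.22, adjusted p = 0.0195). Vegfa was at 65.6 and 72.7 CPM at day 1, at 205.4 and 197.5 CPM at day 3 and at 215.4 and 181.5 CPM at day 7 (1.57 ± 0.37, adjusted p = 0.0477). Without the 3 libraries these were -1.03 (adjusted p = 0.0306) for Bnip3 and 1.92 (adjusted p = 0.0290) for Vegfa. In each gene the ctrl and treat samples of a day lay on the same side of those of the other day. For Vegfa this rested on library 1 of ctrl day 1, at 38.8 CPM against 374.5 and 232.8 CPM in libraries 2 and 3. Without library 1 the sample was at 280.1 CPM, above day 7, and the Vegfa value was 0.52 (adjusted p = 0.790), while leaving out any of 8 other libraries gave 1.31 to 1.80 and also missed the threshold (adjusted p = 0.0501 to 0.0813). The Bnip3 value was -2.23 (adjusted p = 0.0611) without library 1 of ctrl day 1 and -0.87 (adjusted p = 0.276) without library 1 of treat day 1, whose sample was then at 29.4 CPM. The Bnip3 call ended when any sample of day 1 or 7 was left out (-1.05 to -1.54, adjusted p = 0.109 to 0.267), with finer clusters (-0.66, adjusted p = 0.257) and with each library as a sample (-1.71, adjusted p = 0.0576). The Vegfa call was held in 7 of 19 alternatives and ended without any sample of day 1 or 7, sham sample 2 or 3, or ctrl day 3 (1.34 to 1.79, adjusted p = 0.0513 to 0.426). It also ended with doublets kept, no hemoglobin limit or free RNA subtracted (1.52 to 1.58, adjusted p = 0.0512 to 0.102), with finer clusters (2.20, adjusted p = 0.174) and with each library as a sample (0.86, adjusted p = 0.253). Bnip3 was lower at day 7 than at day 1 in each macrophage cluster, in both groups. In the one led by C1qa and C1qc the ctrl and treat samples went from 84.2 and 31.85 CPM to 29.2 and 23.4 CPM. In the one led by Mrc1 and Cd163 they went from 64.9 and 29.6 CPM to 17.1 and 17.8 CPM. Some sums were small, as with 0 Bnip3 UMIs in the 31 treat cells of day 7 in the one with most cells at day 1. Within clusters Vegfa went both ways. In the one led by Fcnb and Lyz2 the ctrl and treat samples were at 111.5 and 123.9 CPM at day 1 and at 293.0 and 283.3 CPM at day 7. In the one led by C1qa and C1qc they went from 103.3 and 62.4 CPM to 206.6 and 154.3 CPM. The groups went opposite ways in the other macrophage clusters. In the one led by Mrc1 and Cd163 the ctrl sample went from 39.3 to 25.7 CPM and the treat sample from 16.5 to 40.8 CPM. In the one with most cells at day 1 the ctrl sample went from 68.2 to 187.6 CPM. The treat sample went from 83.2 to 36.6 CPM there (8 UMIs in 31 cells). In the last the ctrl sample went from 7.63 to 38.3 CPM (6 and 62 UMIs). The treat sample went from 10.8 to 6.55 CPM there (8 and 9 UMIs).

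Other genes of the pathway were counted in 3 lists, which were chosen with earlier results of these data known. Over all cells, 13 of 19 glycolytic HIF targets tested were higher and 0 were lower in the ctrl group than in the sham group, with a median fold change of 1.33 against -0.06 for all genes. In the same comparison 4 of 39 HIF targets outside glycolysis were higher and 1 was lower (median 0.51), which as a share called is near the 11.6% of all genes, and 0 of 20 other HIF regulators were higher and 1 was lower (median 0.02). The largest rises were Ndufa4l2, a mitochondrial protein gene (3.29 ± 0.80, adjusted p = 0.0494), the adenylate kinase gene Ak4 (2.75 ± 0.54, adjusted p = 0.0333), and the phosphoglycerate kinase gene Pgk1 (2.73 ± 0.41, adjusted p = 0.0209). Without the 3 libraries these were 2.002, 1.783 and 2.207 in the same order, and all passed (adjusted p = 0.00885 to 0.0437). Pgk1 was at 247, 229 and 192 CPM in the sham samples, at 3295, 940 and 446 CPM in the ctrl samples and at 622, 521 and 382 CPM in the treat samples. Ak4 was under 2 CPM in all 9 samples. The falls were Stc2, which encodes the hormone-like glycoprotein stanniocalcin (-2.94 ± 0.57, adjusted p = 0.0322), and Arnt2, a relative of Arnt (-1.80 ± 0.26, adjusted p = 0.0196). Stc2 lay at 6.16 to 18.7 CPM in the sham and 0.698 to 2.08 CPM in the ctrl samples. These list counts depended on single samples: 0 list genes were called without sham sample 2, sham sample 3, ctrl day 3 or ctrl day 7, 7 without ctrl day 1, 8 without treat day 3, 6 without treat day 7 and 31 without sham sample 1, against 19 with all samples and 24 without the 3 libraries.

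Within classes the glycolytic targets differed in count. In the ctrl group 10 of 19 were higher in BEC (median 1.78; 12.7% of all genes called), 12 of 18 in fibroblasts (median 1.09; 20.1% of all genes) and 11 of 19 in macrophages (median 1.06; 15% of all genes). Fewer passed in NK and T cells, with 4 of 17 (median 0.57; 7.19% of all genes), and only Pgk1 passed of 17 in vascular endothelial cells (median 0.71) and of 16 in tuft cells (median 0.30). In none of these classes was one lower. Without the 3 libraries 10 of 19 were higher in BEC (median 1.00), 11 of 18 in fibroblasts (median 1.03), 10 of 19 in macrophages (median 1.02) and 4 of 17 in NK and T cells (median 0.46), and the medians were 0.51 in vascular endothelial cells and 0.05 in tuft cells. Of the targets outside glycolysis, 7 of 37 were higher in BEC and 9 of 34 in fibroblasts, with 0 and 2 lower. In macrophages 4 of 35 were higher and 2 lower (median -0.03), and in vascular endothelial cells 1 of 33 was higher and 1 lower (median -0.06). In NK and T cells 0 of 24 were higher and 1 was lower (median -0.24), and in tuft cells 0 of 22 were called (median 0.14). In the treat group against the ctrl group 0 genes of the lists were called in any selection by edgeR with all libraries, 1 glycolytic target was called lower in fibroblasts without the 3 libraries, 2 were called by DESeq2 over all cells, and 1 of 19 glycolytic targets had a positive fold change over all cells (median -0.73). That median was -0.41 without the 3 libraries, and in BEC it went from -1.27 to -0.83. From day 1 to day 7, Cxcr4, a chemokine receptor gene, rose over all cells (1.44 ± 0.16, adjusted p = 0.0218) and in fibroblasts (1.24 ± 0.33, adjusted p = 0.0188), but fell in vascular endothelial cells (-1.75 ± 0.34, adjusted p = 0.0267). NK and T cells were 3.40% and 5.16% of the cells at day 1 and 24.96% and 25.78% at day 7 in the ctrl and treat samples, and the part of this in the Cxcr4 value was not tested. Gys1, the glycogen synthase gene, fell over all cells (-1.59 ± 0.28, adjusted p = 0.0446), and without the 3 libraries was at -0.91 and did not pass (adjusted p = 0.140). In fibroblasts, 10 of 18 glycolytic targets fell between these days (median -1.33), in a class where 34.1% of all genes were called.

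**Figure D5:**
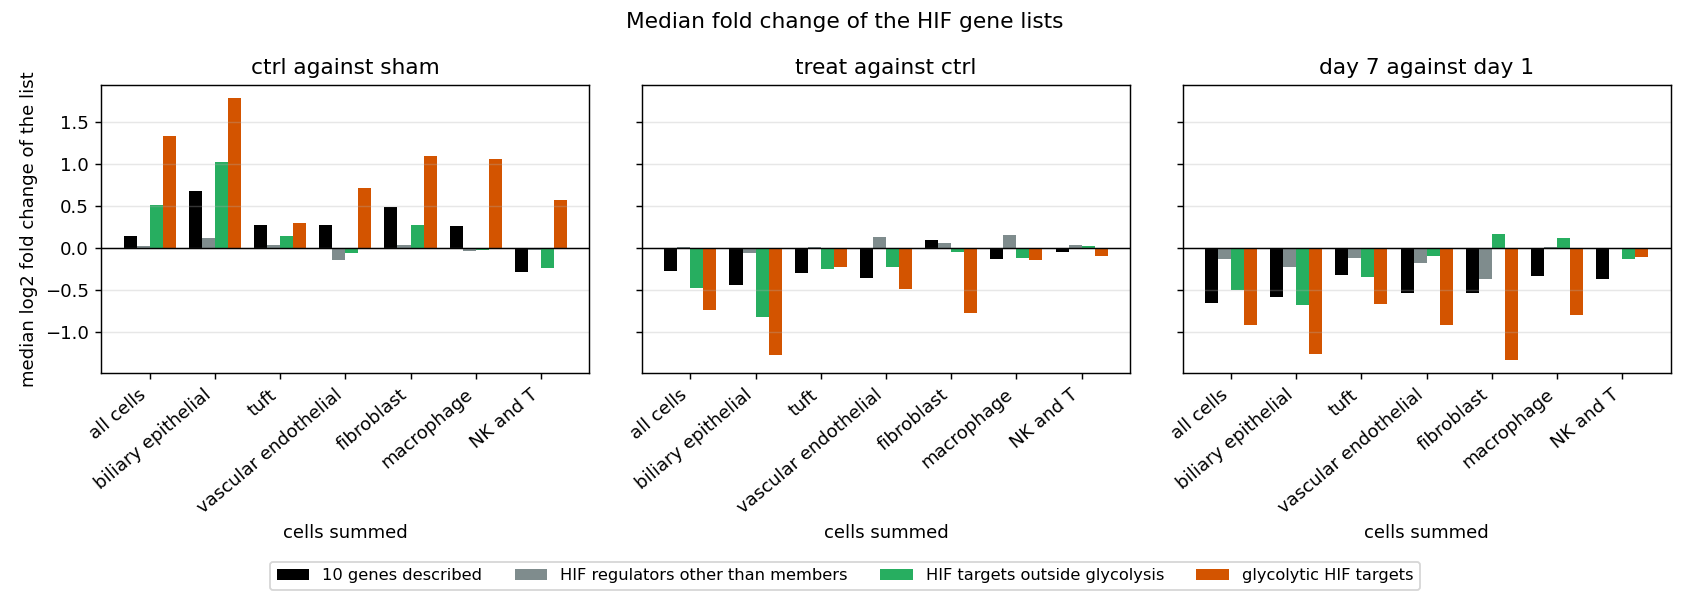
Median log2 fold change (bars) of the 10 genes and of 3 lists of other HIF pathway genes, over all cells and in 6 classes, for the 3 comparisons. The glycolytic targets have the highest median of the 4 sets in every selection for ctrl against sham, up to 1.78 in BEC, and a negative median in every selection for treat against ctrl with all libraries, though in tuft cells it was 0.09 without the 3 libraries that stood apart.

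Likeness of pattern was taken as Pearson's r of log2(CPM + 1) over 95 sums of a class in a sample (15 named classes in 9 samples, over 7642 genes). The sums of a sample share its libraries and depth, so r is a description. The nearest genes to Epas1 were Rai14 (0.85), Slc9a3r2 (0.82) and Lamb1 (0.82), and those nearest to Adm were Ehd2 (0.85), Cald1 (0.84) and Ltbp4 (0.83). Ankrd37 lay nearest to Pla2g12a (0.80), AABR07071876.1 (0.79) and Tnks1bp1 (0.78). Vegfa lay nearest to Cebpa (0.77), Soat1 (0.77) and LOC100360218 (0.76). The genes nearest to Egln3 were Cd24 (0.73), Degs2 (0.71) and Anxa8 (0.71), and those nearest to Bnip3 were P4ha1 (0.70), Pgm1 (0.68) and Il33 (0.68). P4ha1, which encodes a collagen prolyl hydroxylase subunit, is also in the list of targets outside glycolysis. For Hif1a they were Rbms1, Ywhab and Ptpn12 (0.70 to 0.71), and for Vhl Smad2, Kbtbd2 and Ubqln4 (0.70 to 0.71). The low genes Arnt (Heatr4, Ano10 and Xrn1, 0.54 to 0.61) and Egln1 (LOC100361457, Arpc1b and Snx3, 0.56 to 0.58) had the lowest r of the 10.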

How the data were processed

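Bile ducts had been digested with collagenases, dispase and DNase, freed of red and dead cells and run on the 10x Chromium 3' platform. The deposited matrices hold whole-number UMI counts per gene for all barcodes, made by the authors with Cell Ranger 5.0.1 and Seurat 3.2.0 per the labels. The genome build is not given in the sources used here. One library of treat day 3 was not analysed here, and 0 columns of other series were present.

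Kept barcodes had 400 to 6000 genes, less than 25% of UMIs from mitochondrial genes and less than 3% from hemoglobin genes, and up to 7.5% of each library with the highest simulated-doublet score were removed. Cells were clustered without the 10 genes and the pathway lists, on 2000 variable genes, 30 principal components and 15 neighbours (Leiden, resolution 0.9, leidenalg 0.10.2). A cluster of at least 100 cells was named from at least 3 markers, each in over 10% of its cells and over 2 times the level of all other cells. The rules for naming were settled after the leading genes and sizes of the clusters were seen and before the tests. Empty barcodes (at most 100 UMIs) were used to estimate free RNA. In the classes tested between groups it was 0.357% to 10.1% of the UMIs of a class in a library, with a median of 1.15%. Classes that were not tested are not covered by this range.

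Counts were summed per sample and tested with edgeR 4.0.16 (R 4.3.3; TMM, filterByExpr, quasi-likelihood) over 9 samples with terms for sham, each day and treat, which left 4 residual degrees of freedom. The ctrl group was compared with sham as the mean of its days, and treat with ctrl within days. Benjamini-Hochberg adjustment ran over all genes of a fit. CPM are plain shares of the UMIs of the cells summed, and class levels used log2(CPM + 1). A value of 0 allows up to 3 counts. Errors at a low count cover counting only. Named genes are all 10 genes, up to 3 list genes per direction and comparison over all cells, and the 3 most alike genes for each of the 10. The 10 genes and the lists were chosen with earlier results of these data known. Alternatives were library size without TMM, DESeq2 1.42.0, no filter on low counts, no day term, each library as a sample, each sample or library left out, doublets kept, no hemoglobin limit, free RNA subtracted and finer clusters. The fits were tested on simulated data. Gapdh was not analysed here.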

Additional observations from a re-analysis of the deposited data

Results flagged for a closer look

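Epas1 moved in opposite directions in different classes between the sham and ctrl groups. All 3 ctrl samples lay above the sham samples in fibroblasts and below them in vascular endothelial cells. The fold changes of Epas1 were 2.91 and -0.96 on the log2 scale, a difference of 3.87, and this difference was not tested. Epas1 in fibroblasts and macrophages (2.91 and -1.31) differed by 4.22 in the same way, also not tested, and the macrophage value did not pass (adjusted p = 0.0801). Epas1 was low in macrophages, at most 9.13 CPM in any library, so that fold change rests on few counts.

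For Ankrd37, all 3 ctrl samples lay above the sham samples in tuft cells and below them in fibroblasts. The fold changes were 1.10 and -0.76, a difference of 1.86 that was not tested, and the tuft value did not pass (adjusted p = 0.158). No group had enough samples for a search for single outlying samples.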

How the results depend on the processing

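Of 15 calls of the 10 genes, 2 (Hif1a and Epas1 in fibroblasts, ctrl against sham) were held in every alternative run for them, 0 reversed, and calls were kept in 214 of 294 alternative fits that left no single library out. For ctrl against sham over all cells, 1 gene was called, 3 by DESeq2 and 2 without the hemoglobin limit, and within classes 10 were called and 6 without the day term. For treat against ctrl, 0 were called, but DESeq2 called 1 over all cells and 2 within classes, and libraries as samples gave 4 within classes. For day 7 against day 1 over all cells, 1 became 2 by DESeq2 and 3 with libraries as samples. Within classes, 3 became 8 by DESeq2, 10 with libraries as samples, 1 with free RNA subtracted, 1 with finer clusters and 6 without the 3 libraries that stood apart, a setting chosen after seeing the data. For the lists over all cells, 19 became 30 by DESeq2 for ctrl against sham, 0 became 2 by DESeq2 for treat against ctrl, and 2 became 1 without TMM, 15 by DESeq2, 26 with libraries as samples and 4 without the 3 libraries for day 7 against day 1. With each sample left out in turn, the genes called ranged over 0 to 3 (all cells) and 4 to 13 (within classes, 5 without sham sample 2 and 5 without ctrl day 1) for ctrl against sham, 0 to 0 for treat against ctrl, and 0 to 1 and 0 to 6 for day 7 against day 1. With each of 17 libraries left out in turn, also chosen after seeing the data, 8 of the 15 calls passed in all fits, 0 reversed, and 0 genes were called for treat against ctrl. With each sample, not library, left out in turn, list genes called over all cells ranged over 0 to 31, 0 to 0 and 0 to 9 in the 3 comparisons in the same order. The cause of these changes was not tested. The share of all genes called can change with the setting too. For ctrl against sham over all cells it was 11.6% with all libraries and 17.6% without the 3 libraries. For day 7 against day 1 in BEC it was 2.72% with all libraries and 9.95% without the 3 libraries. In the latter setting it was 34.9% in fibroblasts, 4.16% in macrophages, 2.385% in vascular endothelial cells, 1.29% in NK and T cells and 0.351% in tuft cells. Shares are not given here for DESeq2 or libraries as samples, so those counts are not set against them. With 1 sample per arm and day, a left-out sample leaves that arm and day without a sample of its own. No replicate block was fitted, since the labels give no replicate numbers shared between groups, and ctrl and treat were matched by day through the day term.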
